A study of Mus musculus with 108 samples.

Results

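The nuclear genes of oxidative phosphorylation were followed in liver, kidney and white adipose tissue (WAT). Members were the protein-coding genes of the deposited count table whose symbols name subunits of the 5 complexes, with pseudogene names and the Ndufaf assembly factors left out. Of 55416 genes in the table, 115 symbols matched, 98 of them protein coding, and 89 genes with 88 symbols were kept. They comprise 38 genes of complex I, 4 of complex II, 9 of complex III, 20 of complex IV and 18 of complex V, where Ndufa4 and its relative Ndufa4l2 are counted with complex IV. The symbol Atp5o stands on 2 rows, 1 of which holds no counts. Low counts removed some members from the tests: 83 members passed in liver, 85 in kidney and 88 in WAT.

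Oxidative phosphorylation takes place in the inner mitochondrial membrane. Complexes I and II feed electrons from NADH and succinate into ubiquinone, complex III passes them to cytochrome c, complex IV hands them to oxygen, and complex V uses the resulting proton gradient to make ATP. Most subunits are encoded in the nucleus and imported, while the catalytic cores of complexes I, III and IV, and parts of complex V, also hold proteins made from mitochondrial DNA. Several subunits of complex IV exist as paralogs, with a widespread form in most tissues and another form known from striated muscle, brown fat, lung or testis.

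RNA was sequenced from male mice of strain C57BL/J aged 8 to 12 weeks, held under light and darkness of equal length with food and water always present. The genotypes were labelled Bmal1-iKO and Bmal1-flox, written iKO and flox here, and flox is read as the control. The series title names the clock of the intestine, and the labels do not state which driver removes Bmal1 or in which cells. Each tissue and genotype was sampled at zeitgeber time (ZT, counted in hours from lights on) 2, 6, 10, 14, 18 and 22 with 3 libraries per time, which makes 18 libraries per tissue and genotype and 36 per tissue. The labels do not say that each library came from its own animal, so the p-values rest on a spread between libraries that could be technical.

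Total counts per library ran from 13875646 to 22122971 in kidney, 14427873 to 23428470 in liver and 14103498 to 24414797 in WAT. The transcript of Bmal1 (symbol Arntl) was no check of the labels, because they do not place its deletion in these tissues, and its level in CPM, the count scaled to the size of the library, spanned 1.82 to 33.4 (median 11.3) in iKO and 1.12 to 31.9 (median 9.70) in flox kidney, 3.1 to 31 (median 11.7) and 3.21 to 37.8 (median 14) in iKO and flox liver, and 3.06 to 21.9 (median 6.87) and 2.01 to 29.6 (median 8.04) in iKO and flox WAT. Marker genes of liver and kidney were high there (mean log2 CPM of hepatocyte genes in liver from 11.4 to 13.4, of proximal tubule genes in kidney from 8.09 to 10.6). Adipocyte genes ranged from 3.22 to 11.1 in WAT and reached 4.02 in kidney, so they were not high in every WAT library. In 11 of 36 liver libraries, 9 iKO and 2 flox, cell cycle genes averaged 3.31 to 4.10, against -1.41 to 0.94 in the other 25, and all 15 of these genes stood above their highest level elsewhere. The kidney libraries of the same 11 numbers averaged 4.89 to 7.23 in interferon-stimulated genes, against 2.08 to 4.90 in the other 25, and 8.21 to 9.61 in proximal tubule genes, against 8.09 to 10.6. In WAT, striated muscle genes averaged 3.08 to 10.02 in 9 libraries, against -2.19 to 0.37 in the other 27. Epididymis genes averaged 7.85 to 10.9 in 13 WAT libraries, with no more than 6.27 in the other 23. Those 13 had a median of 10.34 in epididymis genes and a lower one, 6.14, in adipocyte genes. The labels call all mice male, and in 2 iKO library numbers, ZT18 library 1 and ZT22 library 3, Xist stood at 8.79 to 8.94 in liver, 7.24 to 7.90 in kidney and 3.47 to 8.15 in WAT, with no more than -0.48 in any other library. Some of the results that rest on these libraries are also given without them. For the 2 numbers high in Xist this covers only the calls of rhythm in iKO kidney.

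Levels are given in CPM scaled by TMM, which sets the libraries against each other by genes that change little, where the other scaling tried, library totals, divides by all counts of a library. Differences are log2 differences from edgeR's quasi-likelihood test on counts, and genes count as called where the Benjamini-Hochberg adjusted p, taken over all genes tested, is under 0.05. The order of levels among genes is given per kilobase of the gene length in the table, while CPM values follow a gene, or the contrast of short and long subunits, across libraries.

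The subunits took a median of 2.46% of all counts in kidney (range 1.78 to 3.18), 1.45% in liver (0.984 to 1.92) and 1.20% in WAT (0.392 to 1.93). Per kilobase in flox libraries, Cox6a1 was the highest subunit in kidney, at 1076 ± 238 CPM per kilobase (SD, n = 18), and in liver, at 1136 ± 280. Cox8a, another small subunit of complex IV, was the highest in WAT, at 431 ± 135. At the low end stood Cox7b2 in kidney, Cox6a2 in liver and Ndufb11b in WAT, each under 1 CPM per kilobase on average. Cox8c and Ndufb11b had no count in any flox kidney library. Those genes and Cox7b2 had none in any flox liver library. The median subunit of complex I was at 89.5 CPM per kilobase in flox kidney, 107.7 in flox liver and 40.5 in flox WAT, and that of complex V at 109 in kidney, 136 in liver and 41.0 in WAT.

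**Figure D1:**
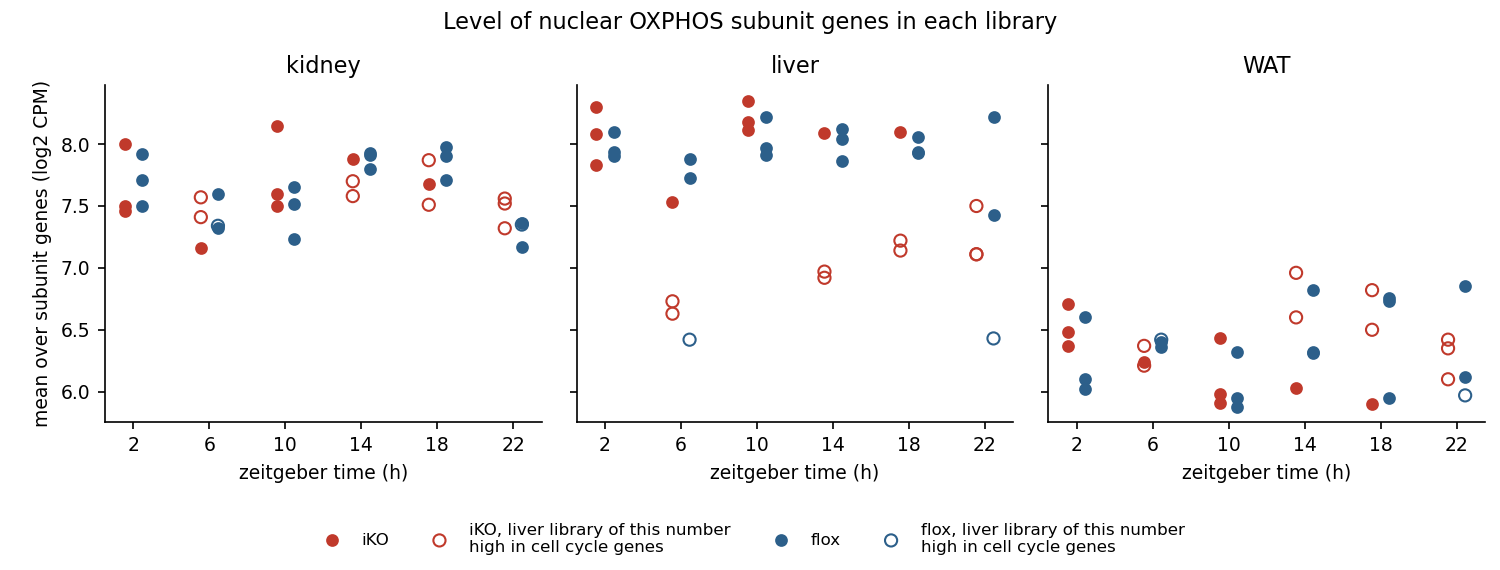
Mean log2 CPM of the subunits of at least 10 CPM in each library against ZT, in kidney, liver and WAT, with iKO left of flox at each time; open points mark the numbers whose liver was high in cell cycle genes. The WAT libraries sit lowest, between 5.88 and 6.96, and the liver libraries spread furthest, between 6.42 and 8.35.

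Both kidney and liver of flox mice held more of most subunits than WAT, for liver by TMM in 78 of 88 and by library totals in 47. Of the 88 subunits tested, 84 were called between kidney and WAT (95.5%), 78 higher and 6 lower in kidney, where 63.5% of all 22789 genes tested were called, 25.1% higher and 38.4% lower. Between liver and WAT 85 were called (96.6%), 78 higher and 7 lower in liver, where 74.2% of all genes were called, 29.1% higher and 45.2% lower. With library totals kidney and WAT differed in 83 subunits (65.7% of all genes), 76 higher and 7 lower in kidney, and liver and WAT in 64 (81.2% of all genes), 47 higher and 17 lower in liver, where 11% of all genes were higher and 70.2% lower. The median log2 difference of the subunits was 1.26 for kidney minus WAT, against -0.26 over all genes, and 1.54 for liver minus WAT, against -0.40 over all genes; with library totals these were 0.98 against -0.54 and 0.37 against -1.50. Without the WAT libraries that were high in epididymis genes 78 were called between kidney and WAT (45.6% of all genes) and 80 between liver and WAT (54.5% of all genes). In bulk tissue, fewer cells of a type and less RNA per cell cannot be told apart.

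By complex, kidney exceeded WAT in 36 of 38 subunits of complex I, all 4 of complex II, all 9 of complex III, 12 of 20 of complex IV and all 17 tested of complex V. The same counts for liver over WAT were 37, 4, 9, 11 and 17, and with library totals 21, 1, 7, 7 and 11. Sdhb, the iron-sulfur subunit of succinate dehydrogenase, showed the largest such difference in complex II. It had 239 to 687 CPM (median 399.5) in flox kidney, 192 to 667 CPM (median 506) in flox liver and 31.1 to 182 CPM (median 74.99) in flox WAT. Neither kidney nor liver overlapped WAT, and the log2 difference was 2.31 (SE 0.18, adjusted p = 2.75e-19) for kidney minus WAT and 2.57 for liver minus WAT by edgeR. Cyc1, the cytochrome c1 of complex III, had 224 to 498 CPM (median 419) in kidney and 63.8 to 186 CPM (median 96.8) in WAT. These groups did not overlap either, and kidney was higher by 1.86 (SE 0.14, adjusted p = 1.15e-19, edgeR). Atp5b, the catalytic beta subunit of ATP synthase, led complex V with a kidney minus WAT difference of 1.85 (SE 0.15, adjusted p = 2.15e-18, edgeR).

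The 6 subunits lower in kidney than in WAT were Cox4i2, Cox7a2l, Cox8b, Cox8c, Cox7b2 and Ndufb11b. Cox7a2l, which takes part in joining complexes III and IV, was the only one of them above 10 CPM. It had 115 to 175 CPM (median 135) in kidney, 64.7 to 203 CPM (median 117) in liver and 107 to 255 CPM (median 176) in WAT, and these ranges overlap. The difference was -0.36 (SE 0.13, adjusted p = 0.0114, edgeR) for kidney minus WAT and -0.58 (SE 0.13, adjusted p = 4.98e-05) for liver minus WAT. The others are rare paralogs. The median of Cox7b2 was 0 CPM in kidney and 0.0948 CPM in WAT, both under a floor of 3 counts per library, so no fold is given for it. Its WAT mean of 0.245 CPM fell to 0.107 CPM without flox library 1 at ZT22, which had 2.6 CPM.

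Between kidney and liver the subunits split, and the direction depended on the scaling. Of 88, 54 were called (61.4%), 17 higher and 37 lower in kidney, and 62.5% of all genes tested were called, 34% higher and 28.5% lower. The share called was thus near that of all genes, and the median subunit differed by -0.20, against 0.06 over all genes. With library totals 62 were called, 61 higher and 1 lower in kidney, against 55.7% of all genes higher and 12.4% lower (68.1% called), and the median subunit stood at 0.65 where the median of all genes stood at 0.82. Relative to all genes the median subunit was thus lower in kidney under both scalings, while its own sign was negative with TMM and positive with library totals. Without the 11 library numbers whose liver was high in cell cycle genes, 59 were called with TMM, 14 higher and 45 lower, where 61.2% of all genes were called, 34.3% higher and 26.9% lower. With TMM and all libraries, complex I had 4 subunits higher and 22 lower in kidney of 38, complex III had 1 and 3 of 9, complex IV 6 and 5 of 20, and complex V 3 and 7 of 17. In complex II, 3 of 4 were higher in kidney and none was called lower. With library totals the subunits higher in kidney numbered 25 in complex I, 4 in complex II, 6 in complex III, 14 in complex IV and 12 in complex V. Of the lower ones with TMM, Uqcrq of complex III alone was called lower with library totals.

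Several large catalytic and core subunits were higher in kidney under both scalings. Atp5b had 1211 to 3248 CPM (median 2635) in flox kidney and 612 to 1560 CPM (median 1052) in flox liver. The median kidney library stood above every liver library, and the difference was 1.32 (SE 0.15, adjusted p = 1.06e-12, edgeR). Ndufs1, the largest iron-sulfur subunit of complex I, had 77.3 to 254 CPM (median 196) in kidney and 55.4 to 106 CPM (median 81.8) in liver, again with the kidney median above every liver library, a difference of 1.28 (SE 0.15, adjusted p = 3.05e-12, edgeR). Sdha, the flavoprotein of complex II, had 250 to 886 CPM (median 650) in kidney and 160 to 567 CPM (median 292) in liver. The kidney median stood above the liver range here too, and the difference was 0.96 (SE 0.14, adjusted p = 6.39e-09, edgeR). Atp5a1, the alpha subunit that forms the catalytic head with Atp5b, was higher by 0.90 and the core protein Uqcrc2 of complex III by 0.81. Sdhc and Sdhd, the membrane anchors of complex II, were higher by 0.51 and 0.36, while Sdhb differed by -0.27 (adjusted p = 0.169, edgeR) and did not pass the test. With library totals the differences were 2.17 for Atp5b, 2.13 for Ndufs1, 1.80 for Sdha, 1.76 for Atp5a1, 1.65 for Uqcrc2, 1.37 for Sdhc, 1.21 for Sdhd and 0.63 for Sdhb, all called.

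Several small accessory subunits were lower in kidney with TMM, of which Uqcrq was also called lower with library totals (-1.17). Uqcrq, which contacts the cytochrome b of complex III, had 153 to 469 CPM (median 277) in flox kidney and 121 to 2261 CPM (median 1246) in flox liver. The lowest liver library lay below the kidney range and the median liver library above it, and the difference was -2.10 (SE 0.23, adjusted p = 8.48e-13, edgeR). Uqcr11, another small subunit of complex III, differed by -1.30 (adjusted p = 8.62e-07), Atp5e, the epsilon subunit of ATP synthase, by -1.25 (adjusted p = 5.05e-08), Ndufb7 of complex I by -1.13 (adjusted p = 2.58e-08) and Ndufb1 by -1.08 (adjusted p = 1.06e-06), all by edgeR. With library totals these were -0.38 for Uqcr11, -0.32 for Atp5e, -0.21 for Ndufb7 and -0.17 for Ndufb1, none of them called.

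Across the 78 subunits of at least 10 CPM on average, the kidney minus liver difference went with the length of the protein (Pearson r = 0.61, Spearman rho = 0.52, a description across genes, which are not independent replicates), with the same coefficients under library totals. Among subunits under 100 codons, 3 were higher and 12 lower in kidney of 25 tested, with a median difference of -0.29 by TMM. Among those of 100 to under 200 codons, 6 were higher and 21 lower of 41 (median -0.40), and among those of 200 or more codons 8 were higher and 3 lower of 21 (median 0.17). Other protein-coding genes had medians of 0.00, 0.00 and 0.15 in these classes. Over all genes tested, of any length, 34% were called higher and 28.5% lower in kidney by TMM. With library totals Uqcrq alone of the subunits was called lower in kidney. For kidney minus WAT the same correlation was 0.37, and for liver minus WAT it was -0.36. The mean log2 level of the 19 short subunits minus that of the 21 long ones was -0.64 ± 0.33 in iKO kidney and -0.66 ± 0.23 in flox kidney (SD, n = 18 each). It ranged from -1.26 to -0.11 in iKO and -1.03 to -0.25 in flox kidney, and from -0.85 to 0.81 in iKO and -0.98 to 0.63 in flox liver.

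**Figure D2:**
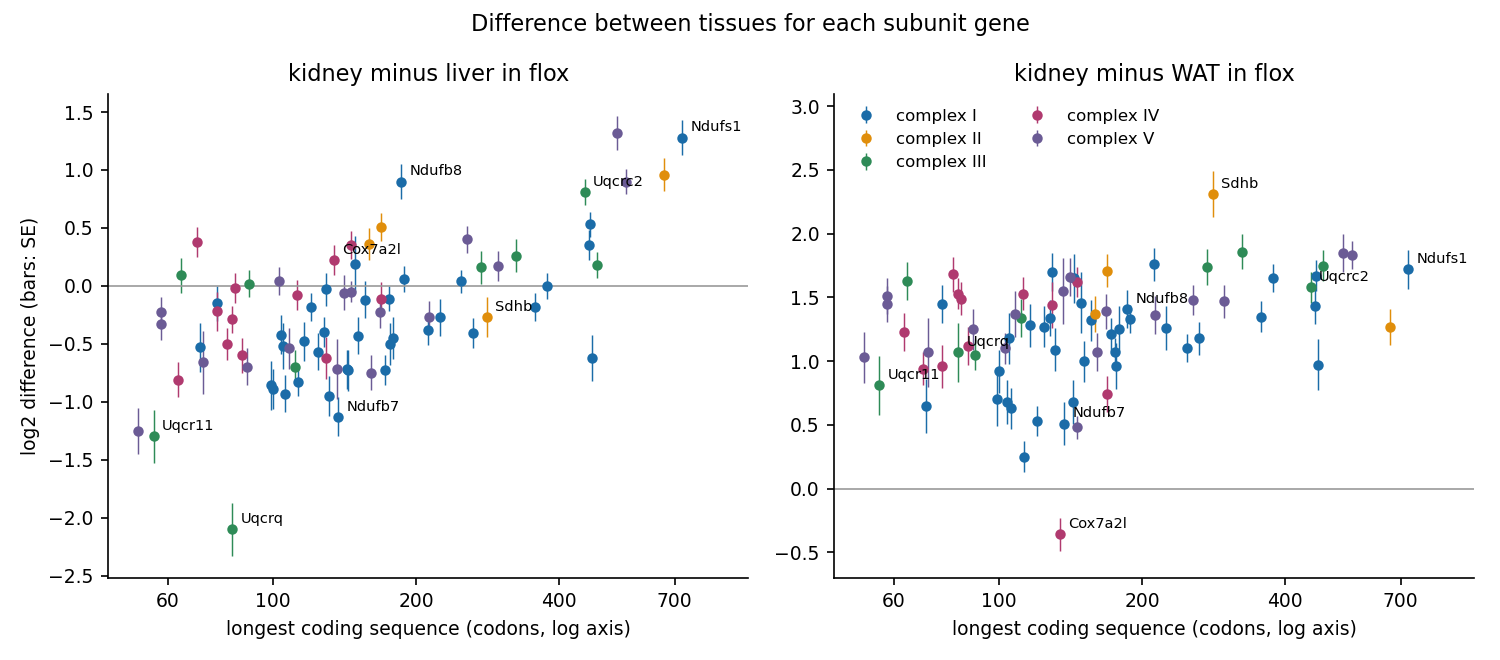
Log2 difference of kidney minus liver (left) and kidney minus WAT (right) in flox libraries for each subunit of at least 10 CPM, against its codons on a log axis, coloured by complex, with bars for the SE. Values are by TMM; on the left Uqcrq lies lowest at -2.10 (-1.17 with library totals) and Atp5b and Ndufs1 lie highest among those drawn at 1.32 and 1.28 (2.17 and 2.13).

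In kidney and liver the form of Cox6a known from striated muscle was rare beside the widespread one. Per kilobase Cox6a1 averaged 1076 CPM in flox kidney and 1136 in flox liver, and Cox6a2 averaged 1.70 and 0.120. Cox6a1 had 505 to 1009 CPM (median 778) in flox kidney, 306 to 1117 CPM (median 855) in liver and 153 to 419 CPM (median 258) in WAT, while Cox6a2, the muscle form, stayed at or under 8.47 CPM in kidney and 0.460 CPM in liver. Cox6a2 was called higher in kidney than in liver, where 12 of 18 flox libraries had no count, with a fitted difference of 4.75 (SE 1.21, adjusted p = 0.000482, edgeR). In flox WAT it had 0 CPM in 10 of 18 libraries and 215 CPM in one, and it was not called between kidney and WAT (0.97, adjusted p = 0.298, edgeR). Without flox library 2 at ZT18, the one with 215 CPM, it was called higher in kidney, by 2.89 (adjusted p = 0.00423, edgeR).

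Another 3 minor forms were higher in kidney than in liver. Cox6b2, a form known from testis, had 1.20 to 7.72 CPM (median 3.29) in flox kidney and 0 to 1.38 CPM (median 0.359) in flox liver, a difference of 3.19 (SE 0.37, adjusted p = 7.21e-12, edgeR). Cox4i2, a form known from lung, had 0.505 to 2.06 CPM (median 1.31) in kidney and 0 to 2.05 CPM (median 0.198) in liver, a difference of 2.24 (SE 0.47, adjusted p = 3.04e-05). Cox7a1, a form of heart, muscle and brown fat, had 3.41 to 15.1 CPM (median 8.19) in kidney and 0.837 to 9.85 CPM (median 2.45) in liver, a difference of 1.64 (SE 0.37, adjusted p = 8.49e-05). The ranges of all 3 overlap between the tissues, and only for Cox6b2 does the kidney median lie above the liver range. Between kidney and WAT, Cox7a1 differed by 1.96 (SE 0.37, adjusted p = 4.86e-06), Cox4i2 by -1.17 (SE 0.37, adjusted p = 0.00459) and Cox6b2 by 0.19 (adjusted p = 0.647), all by edgeR. Cox8b had 0 to 1.62 CPM in kidney, 0 to 0.639 CPM in liver and 0 to 79.0 CPM (median 3.01) in WAT. It was lower than in WAT by a fitted -5.18 in kidney (SE 0.86, adjusted p = 3.81e-07), where 8 of 18 libraries had no count, and by -6.11 in liver, where 11 of 18 had none. Without the WAT libraries high in striated muscle genes these were -3.74 and -4.68.

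The widespread forms differed less between kidney and liver, and for most of them the sign depended on the scaling. Cox6b1 differed by -0.60 (adjusted p = 0.000481), Cox7b by -0.50 (adjusted p = 0.00126), Ndufa4 by -0.29 (adjusted p = 0.0346) and Cox8a by 0.38 (adjusted p = 0.0094) in edgeR. The call of Ndufa4 was lost in 8 of 18 fits that each left out 1 flox number, down to -0.18 (adjusted p = 0.211) without library 3 at ZT22. Cox4i1 (-0.11), Cox6a1 (-0.08), Cox7a2 (-0.02) and Cox7a2l (0.22) did not pass the test, nor did Ndufa4l2 (-0.40, adjusted p = 0.278), while Cox7a2l passed without library 3 at ZT6 (0.31, adjusted p = 0.0272). With library totals all of these were positive, at 0.31 for Cox6b1, 0.41 for Cox7b, 0.60 for Ndufa4, 1.26 for Cox8a, 0.80 for both Cox4i1 and Cox6a1, 0.87 for Cox7a2, 1.07 for Cox7a2l and 0.52 for Ndufa4l2, of which Ndufa4l2 alone did not pass the test. Over WAT, kidney was higher by 1.53 for Cox6a1, 0.94 for Cox8a and 0.74 for Cox4i1, all called.

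The 3 genes of the c subunit, which forms the rotor ring of ATP synthase and whose mature protein is the same from each gene, differed among themselves. Atp5g1 had 137 to 546 CPM (median 230.2) in flox kidney, 22.1 to 589 CPM (median 438) in liver and 28.4 to 173 CPM (median 75.6) in WAT. Atp5g2 was the most even, with 105 to 175 CPM (median 152) in kidney, 91.6 to 206 CPM (median 152) in liver and 74.9 to 148 CPM (median 105) in WAT. Atp5g3 had 354 to 812 CPM (median 581) in kidney, 211 to 913 CPM (median 662) in liver and 72.7 to 316 CPM (median 168) in WAT. Of these, Atp5g1 was called between kidney and liver, at -0.72 (SE 0.26, adjusted p = 0.0115, edgeR; -0.57, adjusted p = 0.0527, without library 3 at ZT22), and Atp5g2 (-0.05) and Atp5g3 (-0.06) were not, while with library totals Atp5g1 differed by 0.21 (adjusted p = 0.471) and Atp5g2 and Atp5g3 were called higher, by 0.82 and 0.83. Over WAT, kidney was higher by 1.55, 0.48 and 1.66 for Atp5g1, Atp5g2 and Atp5g3, and liver by 2.27, 0.53 and 1.72, where Atp5g2 turned to -0.60 in liver with library totals. Per kilobase, Atp5g3 was the highest of the 3 in every tissue.

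Cox8a and Cox8b encode the same subunit of complex IV in its widespread and its muscle and brown fat form, and their promoters are shown to set these forms side by side. Both lie on the minus strand of GRCm38, and the sequences, from 250 bases before to 50 bases after the start of transcription, are RefSeq's for GRCm38.p6. Capitals mark, in Cox8a at chr19:7217567-7217866, the letters CCGGAAG read on either strand, an ETS motif bound by GABPA, and in Cox8b at chr7:140900397-140900696 the letters CAGCTG, an E-box form bound by MYOD1.
Cox8a: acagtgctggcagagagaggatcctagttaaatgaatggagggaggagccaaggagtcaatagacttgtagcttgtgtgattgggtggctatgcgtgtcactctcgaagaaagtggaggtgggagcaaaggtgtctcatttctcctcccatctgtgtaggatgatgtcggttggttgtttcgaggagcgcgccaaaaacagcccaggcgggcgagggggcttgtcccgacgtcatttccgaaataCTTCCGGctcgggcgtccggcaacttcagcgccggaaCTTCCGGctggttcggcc
Cox8b: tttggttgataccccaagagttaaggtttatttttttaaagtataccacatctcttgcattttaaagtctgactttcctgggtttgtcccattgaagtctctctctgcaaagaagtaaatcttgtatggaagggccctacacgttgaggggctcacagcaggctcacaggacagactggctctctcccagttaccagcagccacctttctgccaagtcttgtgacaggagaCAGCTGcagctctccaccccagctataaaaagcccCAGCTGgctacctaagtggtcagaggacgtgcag
CCGGAAG was found in 22.7% of 75 promoters of 70 subunit symbols, and in 8.86% of all 32851 promoters, both strands searched. CAGCTG was found in 8% of the subunit promoters and in 16.3% of all. These matches describe letters and show no binding.

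In WAT the muscle form Cox6a2 tracked a set of libraries. In the 9 WAT libraries with high striated muscle genes, 5 iKO and 4 flox, Cox6a2 had 0.945 to 215 CPM, against 0 to 0.471 CPM in the other 27, with no overlap. Its highest values were 172 CPM in the first iKO library at ZT14 and 215 CPM in the second flox library at ZT18. Cox8b had 5.16 to 79.0 CPM in these 9 and 0 to 89.4 CPM in the others, so the ranges overlap. Its 89.4 CPM came from the first iKO library at ZT18, where the brown or beige fat genes averaged 2.62, against a median of -0.32 over all WAT libraries. Cox6a1 (157 to 383 against 153 to 419 CPM) and Cox8a (134 to 458 against 144 to 430 CPM) covered the same range in both sets. Of the 10 striated muscle genes, 6 were in each of the 9 libraries above their highest level in the other 27, where 3 had a median of 0 (Myh4, Myh7 and Tnnc2), and their part in the values of the muscle-type subunits was not tested.

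Cox8c and Ndufb11b were at or near 0 outside WAT. Cox8c, a form known from testis, was at least 3.56-fold lower in flox kidney and at least 3.32-fold lower in flox liver than in flox WAT, against a floor of 3 counts per library. Ndufb11b, whose sequence resembles Ndufb11, was at least 2.65-fold lower in kidney and at least 2.47-fold lower in liver than in WAT. Without the WAT library highest in both, the first flox library at ZT22, the bounds were 2.21 in kidney and 2.07 in liver for Cox8c, and 1.56 and 1.45 for Ndufb11b. Without flox library 1 at ZT18 neither gene was called lower in kidney than in WAT (adjusted p = 1, edgeR). In that fit Cox8c was not called lower in liver than in WAT either. In flox WAT, Cox8c had a median of 0.166 CPM and reached 4.02 CPM. The highest values of the series came from the first iKO WAT library at ZT14, with 24.3 CPM of Cox8c, 12.7 CPM of Ndufb11b, 7.10 CPM of Cox7b2 and 22.5 CPM of Cox6b2. That library had the highest mean of sperm and spermatid genes, 6, of all WAT libraries, where it ranged from -3.1. The share of those cells in the libraries was not tested.

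**Figure D3:**
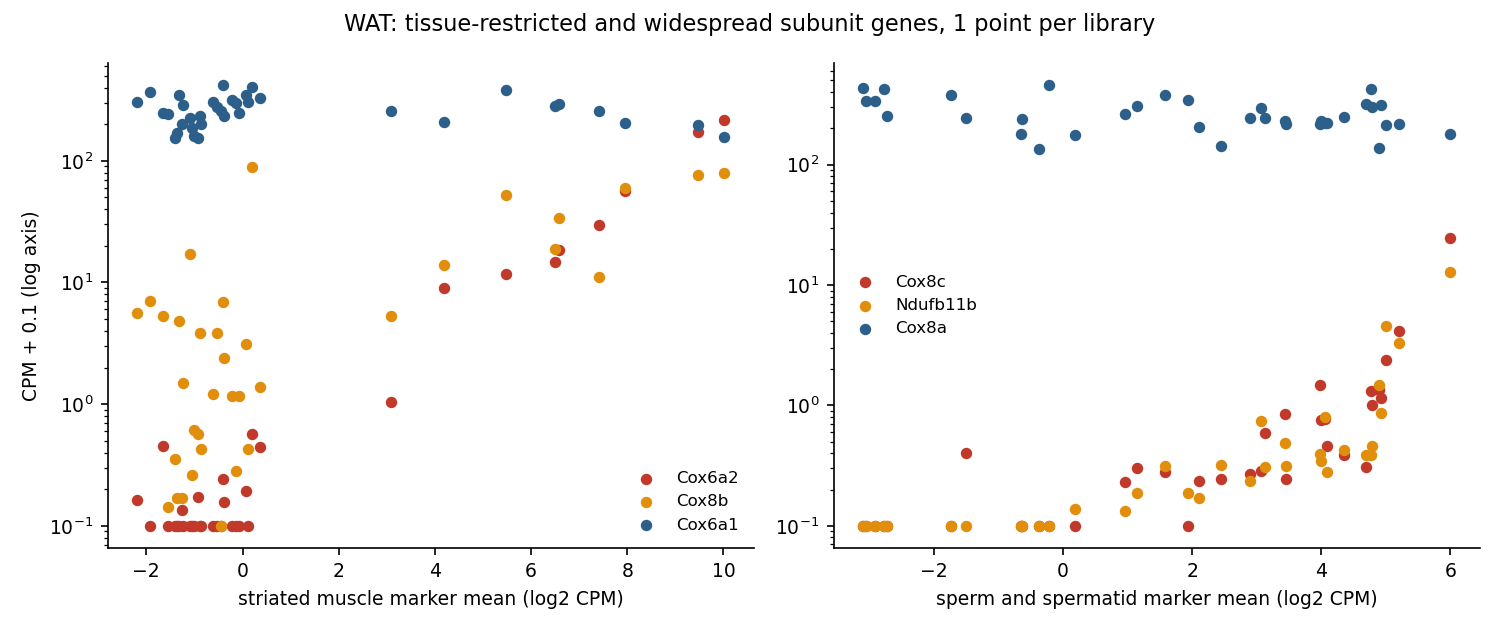
CPM + 0.1 on a log axis of Cox6a2, Cox8b and Cox6a1 against the mean log2 CPM of striated muscle genes (left), and of Cox8c, Ndufb11b and Cox8a against that of sperm and spermatid genes (right), with 1 point for each WAT library. Cox6a2 exceeds 0.471 CPM only in the 9 libraries whose muscle mean is 3.08 or more, and Cox6a1 shows no such step.

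Between genotypes no subunit was called on the average of the 6 times in any tissue. In liver 0 of 83 were called by edgeR (2.64% of all genes were), and 19 had an unadjusted p under 0.05 (22.9%, against 24.6% of all genes). DESeq2 called 3 in liver, and the share of all genes it called there is not given, so the 3 cannot be set against it. With library totals 6 subunits were called, all higher in iKO (7.42% of all genes called): Atp5b (0.55), Cox7a2l (0.49), Ndufv1 (0.35), Ndufa4 (0.34), Ndufs4 (0.28) and Cox7a1 (1.25). In kidney 0 of 85 were called (0.164% of all genes), with 2 at an unadjusted p under 0.05 (9.43% of all genes) and 0 by DESeq2. In WAT 0 of 88 were called (0% of all genes), with 0 at an unadjusted p under 0.05 (3.76% of all genes) and 0 by DESeq2. The median subunit differed by -0.24 in liver, 0.00 in kidney and 0.05 in WAT, and with library totals by 0.04, 0.08 and 0.15, where the medians of all genes stood at 0.28, 0.08 and 0.11. Without the 11 numbers the median was -0.04 in kidney, with 0 called (0.422% of all genes), and -0.23 in WAT, with 0 called (0% of all genes). The part of the interferon-stimulated genes of those kidneys in the subunits' level was not tested.

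The liver's negative median by TMM was not seen without the 11 numbers with high cell cycle genes, 9 of which are iKO. With library totals the median was positive, though below that of all genes, as given above. With all libraries 12 subunits were higher and 71 lower in iKO liver by sign. Without those 11 numbers 56 were higher and 27 lower, with a median of 0.06. That setting holds no iKO library at ZT22 in any tissue, so its average covers the other times. Levels of the subunits correlated with each other inside groups of liver libraries (median 0.83), so these signs are not independent. The split by sign over all genes is not given for either setting. In the 11 libraries the subunits over 10 CPM averaged 6.42 to 7.50 log2 CPM by TMM, against 7.43 to 8.35 in the other 25. As a share of all counts, all subunits took 0.984 to 1.60% (median 1.21) in the 11. They took 1.19 to 1.92% (median 1.52) in the other 25, so these ranges overlap more widely. In the same libraries macrophage genes averaged 7.97 to 9.20 (3.42 to 7.34 in the others), interferon-stimulated genes 6.35 to 7.99 (3.19 to 5.67) and hepatocyte genes 11.4 to 13.1 (12.6 to 13.4). Of 10 macrophage genes 9 and of 15 interferon-stimulated genes 9 stood above all other liver libraries, and of 8 hepatocyte genes 1 stood below all others. The hepatocyte genes did not move together. Serpina1a (138 to 3090 against 3350 to 8360 CPM) and Apoa1 (573 to 17300 against 14800 to 38600 CPM) ran low in the 11. Cps1 (3050 to 11400 against 751 to 4590 CPM) and Ttr (11700 to 25100 against 8500 to 16900 CPM) ran high in them. The part of these cells and genes in the subunits' level was not tested.

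By TMM, subunits differed in how far they moved with those 11 libraries, and the ranges by library totals are not given. Sdhb had 192 to 336 CPM in them and 340 to 667 CPM in the other 25, and Atp5g1 had 22.1 to 134 CPM in them and 278 to 589 CPM in the others, with no overlap for either gene. Uqcrq had 121 to 689 CPM in the 11 and 637 to 2870 CPM in the 25, which overlap only at the ends. Uqcrc2 ran the other way, with 190 to 303 CPM in the 11 and 52.6 to 267 CPM in the 25. Atp5b (797 to 1570 against 612 to 1830 CPM), Sdha (251 to 527 against 160 to 567 CPM) and Ndufs1 (69.2 to 123 against 55.4 to 106 CPM) had overlapping ranges.

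Among single genes Sdhb came nearest to a call in liver. It had 205 to 615 CPM (median 341) in iKO liver and 192 to 667 CPM (median 506) in flox liver. The ranges overlap in full, and the average difference was -0.53 (SE 0.17, adjusted p = 0.0811, edgeR). Ndufs8, an iron-sulfur subunit of complex I, had 77.1 to 263 CPM (median 175) in iKO and 69.3 to 343 CPM (median 252) in flox liver, a difference of -0.57 (SE 0.19, adjusted p = 0.0864). Ndufa4l2, known to be induced in low oxygen, had 0.385 to 10.2 CPM (median 2.22) in iKO and 0.495 to 9.64 CPM (median 6.13) in flox liver, a difference of -0.97 (SE 0.35, adjusted p = 0.106). These 3 genes are the ones DESeq2 called. Leaving out 1 library brought each of them past the threshold in some fits: Sdhb and Ndufs8 without flox library 1 at ZT6 or ZT22, or iKO library 3 at ZT6, ZT14 or ZT18, and Ndufa4l2 without the same libraries other than iKO library 3 at ZT14. Without flox library 1 at ZT6, Sdhb differed by -0.60 (adjusted p = 0.0113), and 12 subunits were called where 19% of all genes were. Ndufa8 of complex I followed with -0.48 (adjusted p = 0.112) and Atp5c1, the gamma subunit of ATP synthase, with -0.42 (adjusted p = 0.113), both by edgeR, and both were called without flox library 1 at ZT6 or ZT22 or iKO library 3 at ZT18, Ndufa8 also without iKO library 3 at ZT6. Without the 11 numbers Ndufs8 differed by -0.32 (adjusted p = 0.156) and the smallest p belonged to Ndufb9, at 0.41 (adjusted p = 0.0889).

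In kidney the 5 smallest p-values for the average effect belonged to Cox4i2, Cox6b2, Cox6a2, Cox7a2l and Ndufb8. Cox4i2 had 0.0998 to 2.51 CPM (median 0.926) in iKO and 0.505 to 2.06 CPM (median 1.31) in flox kidney, a difference of -0.41 (SE 0.19, adjusted p = 0.489, edgeR). Cox6b2 had 1.11 to 12.6 CPM (median 4.95) in iKO and 1.20 to 7.72 CPM (median 3.29) in flox kidney, a difference of 0.41 (SE 0.19, adjusted p = 0.502). Cox6a2 differed by -0.73, and its highest values were 4.07 CPM in iKO library 3 at ZT14, the kidney library with the highest striated muscle mean (3.18), and 8.47 CPM in the second flox library at ZT18. Cox7a2l and Ndufb8 each differed by 0.12, and the groups of all these genes overlapped.

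In WAT the smallest p-values included those of Ndufb7, Cox8b, Cox7a1 and Sdha, all with an adjusted p of 1 in edgeR. Cox8b had 0.0434 to 89.4 CPM (median 3.41) in iKO and 0 to 79.0 CPM (median 3.01) in flox WAT, and Cox7a1 had 0.304 to 23.2 CPM (median 1.54) in iKO and 0.0733 to 25.8 CPM (median 1.19) in flox WAT. Their differences of 1.13 and 0.58 became -3.14 and -1.42 without the 11 numbers. Ndufb7 differed by -0.23 and Sdha by 0.19, with overlap of the groups.

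Time by time the median subunit moved up and down. In kidney it differed by -0.09, -0.14, 0.31, -0.14, -0.14 and 0.13 at ZT2, 6, 10, 14, 18 and 22, with 81 of 85 subunits positive at ZT10 and 73 negative at ZT14. Levels of the subunits correlated with each other inside groups of kidney libraries (median 0.47), so these signs are not independent. Signs and medians over all genes at single times are not given, so a shift shared by all genes cannot be told apart here. In liver the median subunit differed by 0.14, -0.46, 0.16, -0.60, -0.40 and -0.29, and without the 11 numbers by 0.11, -0.24, 0.16, 0.09 and 0.15 at the first 5 times. That setting leaves 1 iKO library at ZT6, ZT14 and ZT18, assumed to vary like the other groups, and none at ZT22. With library totals the medians were 0.07, 0.02, 0.25, -0.05, -0.02 and 0.15 in kidney and 0.31, 0.03, 0.14, -0.15, 0.00 and -0.05 in liver, so the sign at ZT2, 6 and 10 was positive in both tissues. No subunit was called at any single time by edgeR in any tissue, where the largest share of all genes called was 0.0362%, in liver at ZT18. The unadjusted counts were largest in liver at ZT14 (14 of 83) and in kidney at ZT22 (15 of 85), where 19.9% and 8.58% of all genes had an unadjusted p under 0.05. DESeq2 called Atp5g2 in liver at ZT14 (-0.67, adjusted p = 0.0485) and Cox6a2 in WAT at ZT10 and ZT22, whose libraries were mostly at 0. The share of all genes DESeq2 called at these times is not given. The joint test of genotype by time also called none, with 1 subunit in liver (6.45% of all genes), 8 in kidney (7.79%) and 1 in WAT (2.64%) at an unadjusted p under 0.05, and none by DESeq2. Set directly against each other, the genotype effect of liver minus that of kidney called 0 of 88 subunits (0.395% of all genes), with 14 at an unadjusted p under 0.05 (11.4% of all genes) and a median of -0.26, which was 0.07 without the 11 numbers.

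**Figure D4:**
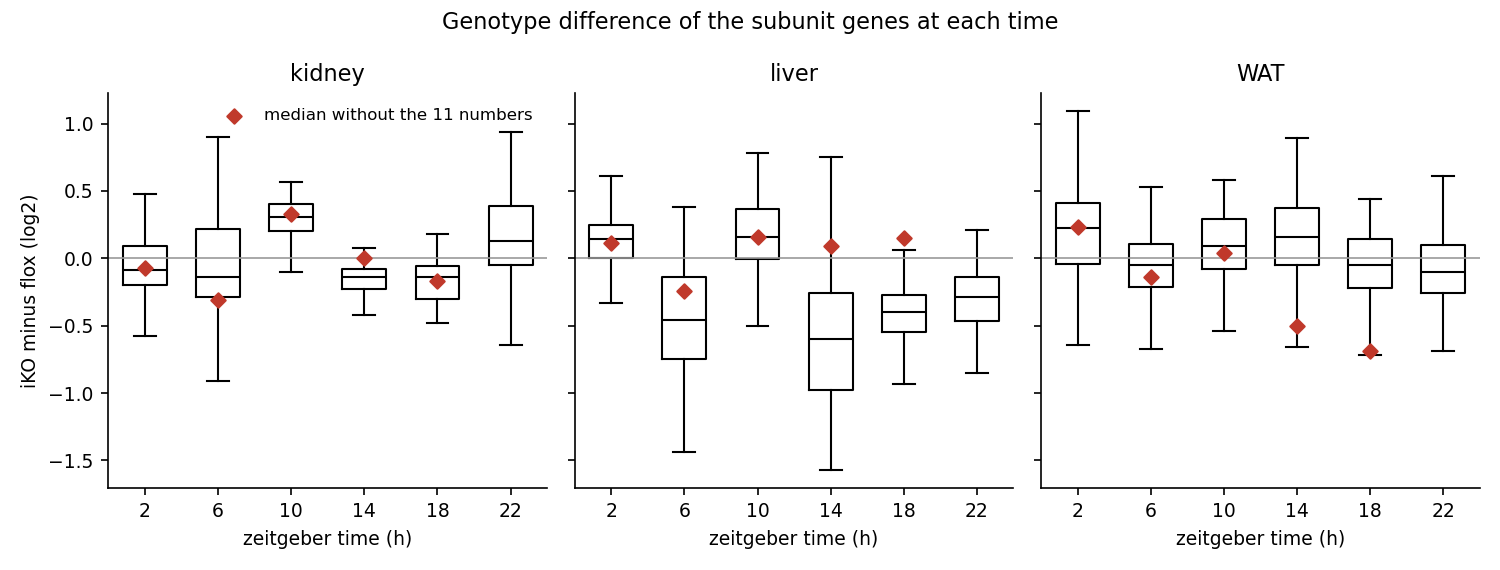
Log2 difference of iKO minus flox over the subunits at each ZT in kidney, liver and WAT. Boxes give quartiles and median with all libraries, whiskers give the range of the subunits other than outlying ones, which are not drawn, and diamonds give the median without the 11 numbers high in liver cell cycle genes. In liver the median at ZT14 is -0.60 with all libraries and -0.15 with all libraries scaled by library totals, and it is 0.09 without those numbers, where 1 iKO library stands against 3 flox libraries. The diamonds at ZT6 and ZT18 rest on 1 iKO library as well.

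The 13 subunits encoded in mitochondrial DNA gave the nearest comparison. They took from 2.36 to 30.0% of counts in liver, 6.70 to 29.5% in kidney and 1.56 to 44.6% in WAT. Their median genotype difference was -1.12 in liver, with 1 called lower and 12 at an unadjusted p under 0.05, -0.45 in kidney, with 0 called and 12 at an unadjusted p under 0.05, and -0.21 in WAT. With library totals these medians were -0.86, -0.37 and -0.10, and without the 11 numbers -0.49 (0 called, 1 at an unadjusted p under 0.05), -0.42 (0 and 5) and -0.36 (0 and 0). The 11 livers held 2.36 to 6.45% of counts in these genes, against 4.74 to 30.0% in the other 25. Between kidney and liver of flox mice their median was -0.39 with TMM, with 2 called lower, and 0.53 with library totals, with 5 called higher. Kidney exceeded WAT in all 13 (median 1.54).

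Over the day, rhythm was tested as a 24 h cosine wave in each genotype, whose amplitude is the log2 distance from mean to peak. In flox kidney 7 of 85 subunits were called rhythmic (8.24%), against 5.07% of all genes, and 32 had an unadjusted p under 0.05 (37.6%, against 22.3% of all genes). In iKO kidney 2 of 85 were called (2.35%), against 4.22% of all genes, and 23 had an unadjusted p under 0.05 (22.5% of all genes). The test of a change of rhythm between genotypes called none in edgeR (0% of all genes), with Uqcr11 alone at an unadjusted p under 0.05 (2.14% of all genes), so the counts in the genotypes were not shown to differ. DESeq2 called 7 in iKO kidney (8.92% of all genes) and 16 in flox kidney (9.53%), and edgeR with library totals called 4 (3.05%) and 24 (6.03%).

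Of the 7 subunits called in flox kidney, 6 peaked early in the dark phase. They were Uqcr11 of complex III (amplitude 1.01, peak at 14.9 h, adjusted p = 0.00842), the complex I subunits Ndufs6 (0.74, 14.5 h, 0.0115), Ndufa3 (0.61, 16.1 h, 0.0217) and Ndufb8 (0.41, 14 h, 0.0253), Atp5k of complex V (1.06, 15.1 h, 0.0352) and Cox5b of complex IV (0.59, 15.0 h, 0.0466), with adjusted p from edgeR. Ndufb2, an accessory subunit of complex I, ran in the opposite phase, with an amplitude of 0.76 and a peak at 1.5 h (adjusted p = 0.00919). Over the 36 fits that each left out 1 library, Uqcr11, Ndufs6 and Ndufa3 stayed called in all, Ndufb2 was lost in 1, Ndufb8 in 2 (without flox library 3 at ZT2, adjusted p = 0.0563, or at ZT14, 0.0539), Atp5k in 9 (up to 0.0942) and Cox5b in 19 (up to 0.0954).

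Uqcr11 in iKO kidney had 259, 45.6 and 46.7 CPM at ZT2, 198, 135 and 57.7 at ZT6, 179.6, 149 and 317 at ZT10, 159, 174 and 206 at ZT14, 174, 191 and 164 at ZT18, and 68.5, 66.2 and 92.9 at ZT22. In flox kidney it had 57.9, 90.9 and 68.5 CPM at ZT2, 51.5, 53.3 and 104 at ZT6, 162, 219 and 92.8 at ZT10, 228, 219 and 234 at ZT14, 228, 282 and 203 at ZT18, and 97.5, 58.5 and 84.5 at ZT22. In flox all libraries at ZT14 and ZT18 stood above all libraries at ZT2, 6 and 22. In iKO the first library at ZT2 and the first at ZT6 lay as high as those at ZT14, and the rhythm was not called.

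Ndufb2 in iKO kidney had 21.3, 39.1 and 42.1 CPM at ZT2, 29.6, 26.2 and 23.1 at ZT6, 12.5, 13.1 and 17.6 at ZT10, 18.5, 15.0 and 18.4 at ZT14, 18.1, 23.5 and 15.4 at ZT18, and 34.4, 40.8 and 37.2 at ZT22. In flox kidney it had 33.1, 34.5 and 85.0 CPM at ZT2, 36.1, 50.6 and 17.2 at ZT6, 14.5, 11.4 and 11.4 at ZT10, 15.1, 24.9 and 21.1 at ZT14, 20.6, 21.4 and 19.9 at ZT18, and 26.6, 39.7 and 19.5 at ZT22. In both genotypes the mean was lowest at ZT10 and the highest library stood at ZT2, while the third flox library at ZT22 lay below all flox libraries at ZT18. Both rhythms were called (iKO amplitude 0.69, peak at 0.5 h, adjusted p = 0.0222, edgeR). The flox call was lost without flox library 3 at ZT2 (amplitude 0.58, adjusted p = 0.057), and the iKO call without iKO library 1 at ZT10 (adjusted p = 0.0627) or library 2 or 3 at ZT22 (0.0534 and 0.0536).

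Atp5k, the e subunit that holds ATP synthase dimers together, in iKO kidney had 91.3, 12.3 and 10.1 CPM at ZT2, 44.5, 44.7 and 26.9 at ZT6, 78.8, 88.4 and 139 at ZT10, 67.4, 85.6 and 87.2 at ZT14, 77.2, 128 and 65.0 at ZT18, and 14.7, 8.73 and 9.09 at ZT22. In flox kidney it had 28.1, 43.6 and 14.5 CPM at ZT2, 21.8, 15.2 and 33.0 at ZT6, 63.1, 98.1 and 44.4 at ZT10, 97.4, 91.1 and 89.2 at ZT14, 90.1, 112 and 72.9 at ZT18, and 46.8, 32.2 and 30.3 at ZT22. The iKO wave was called as well (amplitude 1.08, peak at 12.6 h, adjusted p = 0.0411, edgeR), with its lowest values at ZT22 and in libraries 2 and 3 at ZT2. That call was lost in 11 of 36 fits that each left out 1 library, namely any iKO library at ZT10, ZT14 or ZT22, or library 2 or 3 at ZT2 (adjusted p up to 0.0955), and the amplitude was 1.79 without iKO library 1 at ZT2. Library 1 of iKO at ZT2 stood apart in Uqcr11, Ndufs6 (142 CPM, against 44.1 and 58.9) and Atp5k alike, and its short subunits stood higher over its long ones (-0.57) than in the other iKO libraries at ZT2 (-1.26 and -1.14). Leaving it out gave 20 calls in iKO kidney (8.82% of all genes) and 18 in flox kidney (6.53% of all genes).

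The next iKO subunits by p were Cox6b2 (adjusted p = 0.0651), Cox4i2 (0.0686) and Ndufb8 (0.0725), which edgeR did not call. All 3 were called without iKO library 1 at ZT2 (adjusted p = 0.0124, 0.0353 and 0.00477) or without iKO library 1 at ZT6 (0.0351, 0.0182 and 0.0486), and Cox6b2 and Cox4i2 also without iKO library 2 at ZT6 (0.035 and 0.0445). Counts moved by more than 1.5 times with single libraries: flox kidney had 4 calls without flox library 3 at ZT14 (3.51% of all genes). Without the 11 numbers, which leaves 9 iKO libraries, 7 were called in flox kidney (8.65% of all genes), among them Cox6b2 and Sdha in place of Ndufa3 and Cox5b, and none in iKO kidney (0.17% of all genes).

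**Figure D5:**
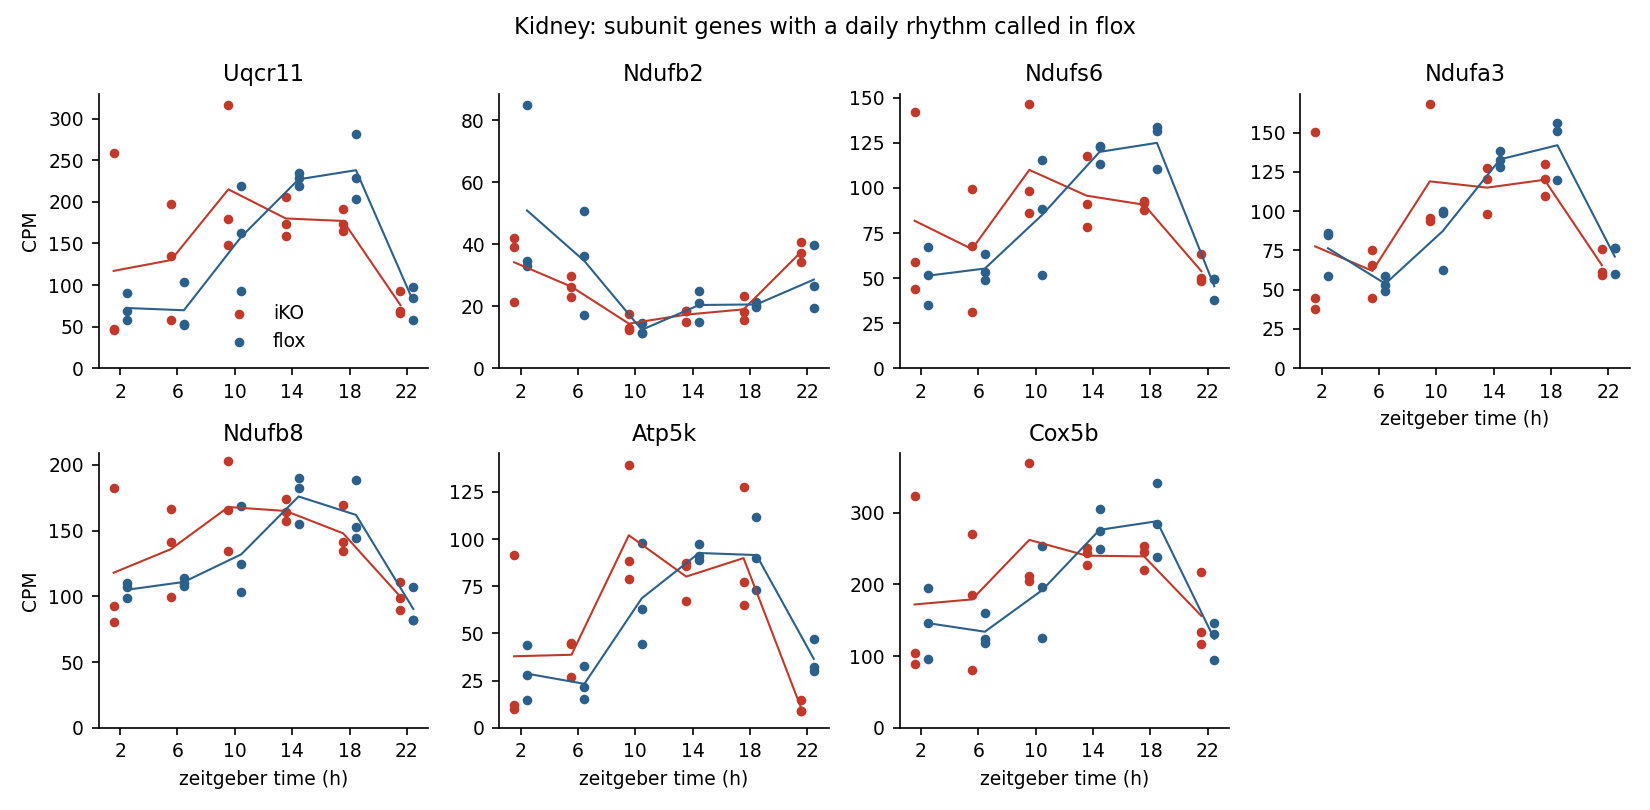
CPM in each kidney library by ZT for subunits called rhythmic, with iKO left of flox at each time, points for the 3 libraries and lines for their means. In flox, Uqcr11 lies between 203 and 282 CPM at ZT14 and ZT18 and between 51.5 and 104 CPM at ZT2, 6 and 22, while Ndufb2 is lowest at ZT10.

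The promoters of Uqcr11 (chr10:80406772-80407071, minus strand), Ndufs6 (chr13:73328433-73328732, minus strand) and Ndufb2 (chr6:39592315-39592614, plus strand) are shown because these genes had the smallest p in flox kidney and Ndufb2 the opposite phase. They are RefSeq's for GRCm38.p6 and cover 250 bases before to 50 after the start. Capitals mark the ETS motif CCGGAAG in Uqcr11, and in Ndufs6 the motif of NRF1 and the YY1 motif AAGATGGC.
Uqcr11: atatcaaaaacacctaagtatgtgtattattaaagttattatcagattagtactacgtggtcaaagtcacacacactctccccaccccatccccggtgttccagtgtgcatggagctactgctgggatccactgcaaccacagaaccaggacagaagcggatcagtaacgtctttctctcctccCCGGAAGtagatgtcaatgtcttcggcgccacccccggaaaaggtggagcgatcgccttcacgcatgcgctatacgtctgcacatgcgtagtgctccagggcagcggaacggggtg
Ndufs6: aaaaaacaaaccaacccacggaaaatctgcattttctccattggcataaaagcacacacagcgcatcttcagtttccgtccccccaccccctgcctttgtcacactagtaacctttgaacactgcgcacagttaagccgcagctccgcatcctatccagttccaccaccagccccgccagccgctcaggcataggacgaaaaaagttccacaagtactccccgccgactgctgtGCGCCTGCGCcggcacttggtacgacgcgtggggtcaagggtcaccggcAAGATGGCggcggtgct
Ndufb2: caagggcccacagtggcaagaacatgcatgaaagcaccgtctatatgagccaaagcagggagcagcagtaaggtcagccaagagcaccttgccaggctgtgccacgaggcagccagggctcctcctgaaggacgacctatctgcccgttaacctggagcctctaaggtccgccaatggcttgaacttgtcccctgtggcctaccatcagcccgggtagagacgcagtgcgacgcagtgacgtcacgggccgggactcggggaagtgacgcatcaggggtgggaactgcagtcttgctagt
Ndufb2 held none of the motifs searched. The clock's E-box CACGTG was in none of these windows and in 9.33% of the subunit promoters, against 7.15% of all promoters. The NRF1 motif was in 24% of the subunit promoters and 4.6% of all, the YY1 motif in 13.3% and 2.75%, and the ESRRA motif TCAAGGTCA in 2.67% and 0.423%, with both strands searched for each.

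In liver no subunit was called rhythmic in either genotype by edgeR (0.0844% of all genes in iKO, 0.772% in flox), and DESeq2 called 0 in each. At an unadjusted p under 0.05 there were 2 in iKO and 6 in flox (12.2% and 14.9% of all genes). In flox liver the smallest p belonged to Ndufb1 (amplitude 0.91, peak at 12.1 h, adjusted p = 0.206), Cox8a (0.48, 15.4 h), Sdhc (0.40, 16.2 h), Sdhd (0.41, 17.5 h) and Atp5pb (0.30, 16.6 h). In iKO liver they were Atp5pb (0.33, 16.0 h, adjusted p = 0.359), Atp5b (0.34, 12.0 h), Cox8a (0.39, 11 h), Ndufb8 (0.37, 13.7 h) and Ndufb9 (0.63, 7.0 h). Without the 11 numbers 4 were called in flox liver (8.24% of all genes): Ndufb1 (amplitude 0.82, peak at 11.8 h, adjusted p = 0.00355), Uqcrb (adjusted p = 0.0246), Cox7a2 (adjusted p = 0.0459) and Ndufb2 (0.59, 3.3 h, adjusted p = 0.0483). Ndufb1 in flox liver had 67.7, 62.8 and 70.9 CPM at ZT2, 19.4, 136 and 161 at ZT6, 139, 113 and 161 at ZT10, 216, 158 and 216 at ZT14, 99.8, 102 and 132 at ZT18, and 26.4, 30.6 and 84.1 at ZT22. Its 19.4 CPM at ZT6 and 26.4 CPM at ZT22 belong to the 2 flox libraries with high cell cycle genes.

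In WAT no subunit was called rhythmic by edgeR (0% of all genes in either genotype). At an unadjusted p under 0.05 there were 3 in iKO and 6 in flox (3.78% and 9.69% of all genes). DESeq2 called 1 in flox, Ndufa1 (0.542% of all genes). Without the libraries high in epididymis genes 5 in iKO and 25 in flox had an unadjusted p under 0.05. Without those high in striated muscle genes these were 8 and 8, and without the 11 numbers 7 and 14. None was called in these settings (0.178% of all genes in iKO without the striated muscle libraries, otherwise 0%). The share of all genes at the unadjusted p is not given for them. With all libraries Ndufa1 had 29.5 to 148 CPM (median 55.3) in flox WAT, with an amplitude of 0.83 and a peak at 12.3 h (adjusted p = 0.113, edgeR). After it in flox came Ndufb11 (amplitude 0.38), Ndufa3 (0.45), Sdhc (0.47) and Ndufs6 (0.39). In iKO the smallest p belonged to Ndufb2 (amplitude 0.60, peak at 0.5 h, adjusted p = 1), followed by Cox8c, Ndufs6, Cox6a2 and Cox7b2, of which Cox8c, Cox6a2 and Cox7b2 had medians under 0.2 CPM in iKO.

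Related gene lists stood beside the subunits as follows. Between kidney and liver of flox mice, 14 of 18 genes of the TCA cycle were higher and 1 lower in kidney (median 0.81), against 6 higher and 19 lower of 32 genes of the mitochondrial ribosome (median -0.34) and 13 higher and 22 lower of 44 assembly factors (median -0.17), while with library totals 17 TCA genes were higher and 0 lower (median 1.64), 21 ribosome genes higher and 4 lower (median 0.54) and 34 assembly factors higher and 2 lower (median 0.69). Over WAT, kidney was higher in 15 TCA genes, 27 ribosome genes and 35 assembly factors, and lower in 0, 0 and 1. In kidney the rhythm test called 6 of the 13 mitochondrially encoded genes in iKO and 9 in flox, 2 and 4 of 44 assembly factors, 2 and 2 of 32 ribosome genes, and no TCA gene. With library totals these calls in iKO and flox kidney were 10 and 9, 5 and 9, 2 and 9, and 0 and 3. Of 19 clock genes it called 11 in iKO and 14 in flox kidney, and 4 in iKO and 8 in flox liver.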

How the data were processed

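RNA-seq libraries were made from Trizol extracts with a NEBNext Ultra RNA kit and read at 150 bp, per the labels' protocols. The authors deposited 1 table of raw gene counts in whole numbers, beside each gene's length, a value of another kind (other unit) whose making is not given in the sources used here. The submitters' processing notes name featureCounts 1.5.0-p3, HISAT2 2.0.4, GRCm38 (mm10) and DESeq2 1.16.1. Gene starts in the deposited table match GENCODE M21 of GRCm38 for 1 of 89 members, so positions and coding lengths were taken from GENCODE M21 and no position from the table is given. The strand setting is not given in the sources used here. Of the members, 33 share exonic bases with another gene, and reads of Ndufa12, Cox5b and Ndufab1 may be split with pseudogene copies (Ndufa12-ps averaged 545 counts beside 825 for Ndufa12), so these are uncertain.

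Libraries were grouped by the labels, and columns matched by name. Within groups, the chi-square over its degrees of freedom was at least 10.5 for every pair of libraries, so none were merged. After filterByExpr and TMM, edgeR 4.0.16 (limma 3.58.1, R 4.3.3) was run with glmQLFit (robust) and glmQLFTest, 1 mean per genotype and time in each tissue, and in 1 fit of all libraries between tissues. Rhythm used a mean, a 24 h cosine and a sine per genotype. P-values were adjusted by Benjamini-Hochberg over all genes tested. edgeR's common coefficient of biological variation stood at 0.302 in kidney, 0.514 in liver and 0.785 in WAT. Log2 CPM used a prior count of 2. Each fit was tested on simulated data.

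Members and gene lists were chosen with earlier results of these data known. Named genes are the paralog families, the largest kidney minus liver and kidney minus WAT difference called in each complex, the 5 smallest p per tissue for the average genotype effect and for rhythm in each genotype, and the highest and lowest level per length in each tissue; 1 of them is not reported here. The sperm and spermatid list, and the settings that leave out libraries high in cell cycle, Xist, epididymis or striated muscle genes or use library totals, were chosen after seeing the data. Other alternatives were DESeq2 1.42.0, its size factors, no filter, flox libraries alone, a replicate block and each library left out.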

Additional observations from a re-analysis of the deposited data

How the results depend on the processing

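Scaling by library totals, chosen after seeing the data, turned the sign of 15 single values, and DESeq2 moved the most counts of calls (6 of 21, against 3 with library totals). Library totals turned the sign of kidney minus liver to 0.21 for Atp5g1, 0.82 for Atp5g2, 0.83 for Atp5g3, 0.80 for Cox4i1 and Cox6a1, 0.31 for Cox6b1, 0.87 for Cox7a2, 0.41 for Cox7b, 0.60 for Ndufa4 and 0.52 for Ndufa4l2. It turned liver minus WAT to -0.60 for Atp5g2, -0.36 for Cox4i1, -0.77 for Cox7a1 and -0.61 for Cox8a, and kidney minus WAT to -0.16 for Cox6b2. Calls became 24 for rhythm in flox kidney, 4 in iKO kidney and 6 for the average genotype effect in liver. DESeq2's size factors kept the direction and the side of the threshold of all 104 single values. They left the counts of all 21 comparisons within 1.5 times, with 8 calls for rhythm in flox kidney in place of 7. Flox libraries alone did so for 59 and 3.

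With DESeq2 the calls were 16 for rhythm in flox kidney, 7 in iKO kidney, 1 in flox WAT, 3 for the average effect in liver, 1 at a single time in liver and 2 in WAT. With no filter rhythm in iKO kidney had 1 call, and it had 0 without the 11 numbers high in liver cell cycle genes and 0 without the 2 numbers high in Xist. Without the 11 numbers rhythm in flox liver had 4 calls, Ndufa4l2 differed by 0.03 for liver minus WAT, and iKO minus flox in WAT was -1.42 for Cox7a1, -3.14 for Cox8b and -0.06 for Sdha. Cox8b was at -0.14 there without the libraries high in striated muscle genes. Cox7a2 for kidney minus liver was 0.02 with no filter.

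The labels do not say that a number marks 1 animal, and the replicate numbers did not meet the rule of a correlation over 0.1 in every pair: 10 of 36 pairs of kidney and liver did. The 2 numbers high in Xist carried it in all 3 tissues and the kidneys of the 11 numbers averaged higher in interferon-stimulated genes, and numbers were left out in all tissues together. Deviations of libraries with the same number correlated at a median of 0.06 between kidney and liver, 0.05 between kidney and WAT, and 0.03, 0.02 and 0.11 between genotypes in kidney, liver and WAT. A replicate block gave 2 calls for the average effect in liver (Ndufs8 and Sdhb), where the share of all genes called is not given. It gave 0.03 for Cox7a2 in kidney minus liver, and left the counts of the other 20 comparisons within 1.5 times.

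Leaving out 1 library at a time, between tissues with the dispersion trend and genes of all libraries held, gave 43 to 56 calls for kidney minus liver, 81 to 85 for kidney minus WAT and 80 to 85 for liver minus WAT. Rhythm ranged from 4 (without flox library 3 at ZT14) to 18 (without iKO library 1 at ZT2) calls in flox kidney and from 0 to 20 in iKO kidney. The average effect in liver ranged from 0 to 12 calls (12 without flox library 1 at ZT6) and its single times from 0 to 2. Values that changed sign were Atp5g3 (-0.14 to 0.06), Cox6a1 (-0.14 to 0.00) and Cox7a2 (-0.10 to 0.14) for kidney minus liver, Cox6b2 (-0.01 to 0.30) for kidney minus WAT and Ndufa4l2 (-0.34 to 0.03) for liver minus WAT. The cause of these changes was not tested. With 3 libraries per time, single times hold the least precision.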
